A study of Mus musculus with 8 samples.

Results

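The interferon response genes are 40 mouse genes named by symbol, 28 of them typical targets of type I interferon and 12 of them typical targets of interferon gamma. They were taken from a gene-level count table of 23006 rows by matching Ensembl identifiers to symbols. Of the 40, 39 had a row, all 28 type I genes and 11 of the gamma genes, while Gbp6 was not analysed here. All 39 passed the filter on low counts.

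The counts came from RNA sequencing of 8 liver libraries of mice labelled WT, 2 libraries in each of 4 groups. The control mice received PBS. The SLIT2 mice received SLIT2 at 2 µg per mouse, injected into the peritoneum over 3 days, and the APAP mice received PBS with acetaminophen (APAP) at 400 mg/kg. The SLIT2+APAP mice received both agents, and livers were taken 24 h after APAP. APAP at high doses injures hepatocytes through a reactive metabolite, and SLIT2 is a secreted protein that binds ROBO receptors and is known for guiding axons and restraining leukocyte migration. The labels number the APAP libraries 3 and 4 and the others 1 and 2, and give no strain, age or sex. The labels do not state that each library is a different mouse. The spread that the p-values rest on is therefore that between libraries and may be technical.

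Type I interferons (interferon alpha and beta) bind the IFNAR1 and IFNAR2 receptor chains and switch on a complex that contains STAT2 and IRF9. That complex binds a DNA element called ISRE in front of antiviral genes such as the Ifit and Oas families and Isg15. Interferon gamma, made mainly by T and NK cells, binds IFNGR1 and IFNGR2 and acts through a DNA element called GAS and through the factor IRF1, which raises guanylate-binding proteins (Gbp), immunity-related GTPases (Igtp, Irgm1, Irgm2, Iigp1) and the chemokines Cxcl9 and Cxcl10. In liver, both hepatocytes and resident macrophages respond to these cytokines, and the target sets overlap.

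Stretches of promoter around the ISRE core are given for 8 genes on which the results below turn, because they show the shared element in genes of both classes. The sequences are from RefSeq on GRCm38.p6, read 5′ to 3′ along the gene's strand. The ISRE core searched was GAAA, any 2 bases and GAAA again, on both strands, and every match is in capitals, so a match on the opposite strand reads as the reverse complement. The windows shown were chr19:34640760-34640838 (plus strand) for Ifit1, chr3:142559974-142560039 (plus strand) for Gbp3, chr3:142530258-142530317 (plus strand) for Gbp7 and chr5:92349068-92349127 (minus strand) for Cxcl10. For the genes called with SLIT2 alone they were chr4:156200850-156200921 (minus strand) for Isg15, chr8:71537562-71537627 (minus strand) for Bst2, chr10:128270251-128270310 (plus strand) for Stat2 and chr11:48871421-48871475 (minus strand) for Irgm1.
Ifit1: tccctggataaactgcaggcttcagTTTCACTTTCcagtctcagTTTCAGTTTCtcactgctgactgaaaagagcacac
Gbp3: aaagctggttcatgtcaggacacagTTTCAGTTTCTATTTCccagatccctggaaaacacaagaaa
Gbp7: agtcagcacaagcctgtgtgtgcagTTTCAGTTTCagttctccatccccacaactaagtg
Cxcl10: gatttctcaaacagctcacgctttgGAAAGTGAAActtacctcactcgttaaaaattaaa
Isg15: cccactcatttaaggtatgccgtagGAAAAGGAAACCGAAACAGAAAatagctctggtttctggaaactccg
Bst2: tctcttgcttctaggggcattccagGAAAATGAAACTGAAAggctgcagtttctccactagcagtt
Stat2: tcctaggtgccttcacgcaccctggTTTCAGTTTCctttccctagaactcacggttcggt
Irgm1: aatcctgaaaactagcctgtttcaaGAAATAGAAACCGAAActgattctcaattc

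Of the 300-base promoter windows (250 bases before to 50 after the start), 13 of the 23 type I genes with a window and 7 of the 10 gamma genes held an ISRE core, against 3.99% of 27025 genes with a window. The GAS core searched, TTCNNNGAA, is its own reverse complement and was held by 5 of the 23 type I genes and 4 of the 10 gamma genes, against 9.55% of all genes. The nearest ISRE core began 39 bases before the start of Gbp3, 53 bases before that of Gbp7, 85 bases before that of Ifit1 and 213 bases before that of Cxcl10. In Bst2 the ISRE core that begins 130 bases before the start overlaps a GAS core that begins 136 bases before it. Neither core was found in the windows of Oasl1 and Ifi44, and Oas2 had no window. A match is a description of the sequence and not evidence of binding in these livers.

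Library totals lay between 60.8 and 100.5 M counts (M stands for 1000000), and levels are given as CPM (counts per M) on library sizes scaled by TMM. The SLIT2 libraries stood apart from the other 6 on the first principal component of all genes (62.3% of the variance), and mitochondrially encoded genes took 60.2% and 69.0% of their counts against 13.4% to 30.3% elsewhere. The 2 APAP libraries differed from each other by a median of 0.60 log2 units per gene, against 0.21 between the control, 0.36 between the SLIT2 and 0.22 between the SLIT2+APAP libraries. Transcripts of skeletal muscle summed to 783.2 and 85.55 CPM over 6 markers in the control libraries and to 1.4 CPM or less elsewhere. Hepatocyte markers, among them Alb, were detected in every library, in keeping with the liver label, with summed levels of 52200 to 104100 CPM outside the SLIT2 group and 7930 and 14430 CPM within it.

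**Figure D1:**
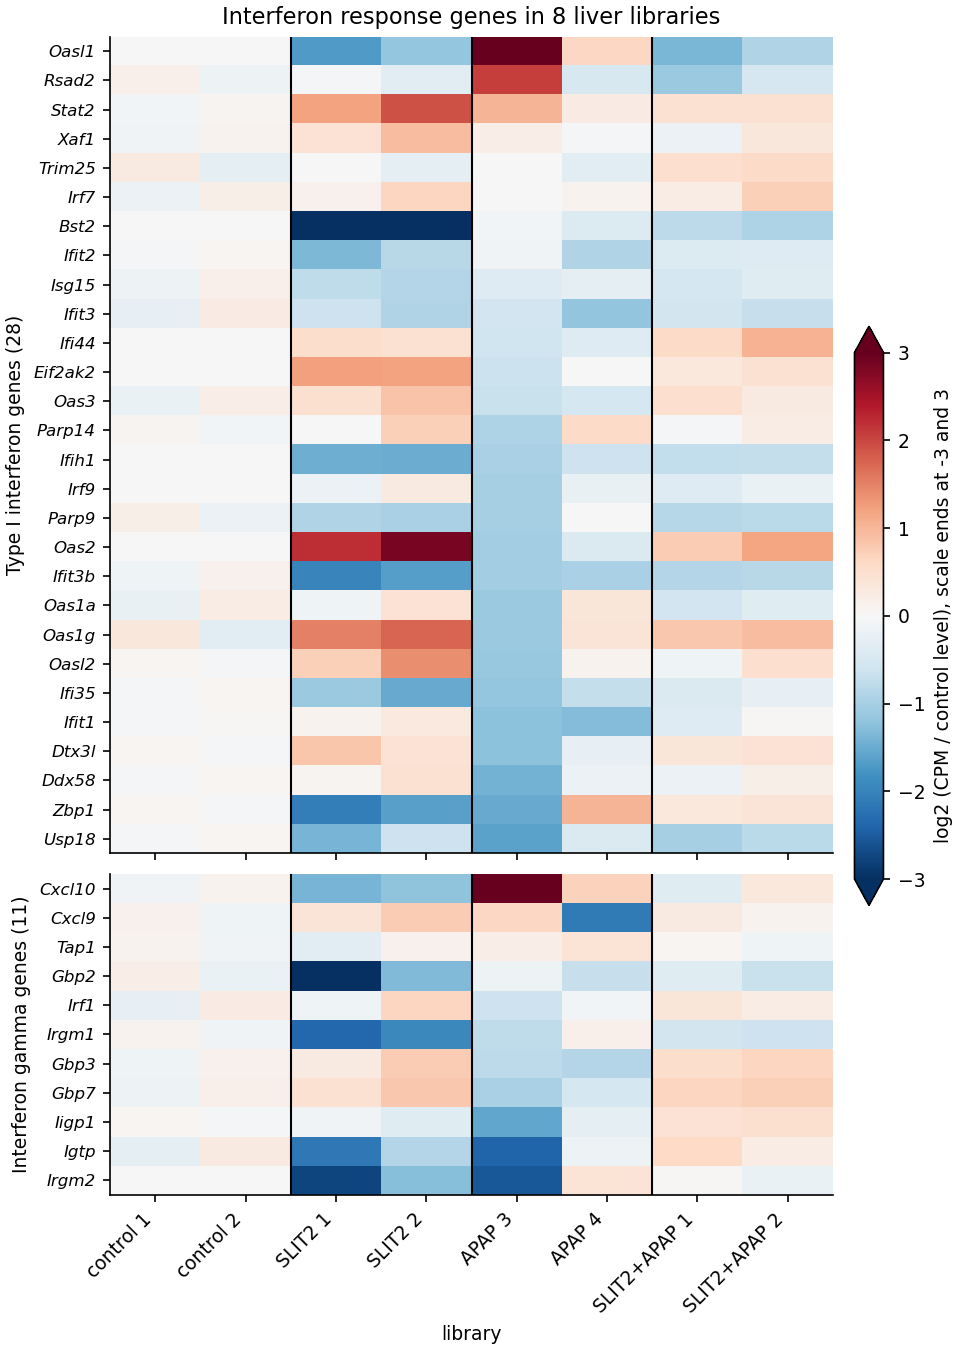
Level of each interferon response gene (rows, 28 type I genes above and 11 gamma genes below, ordered by their value in APAP 3) in each of the 8 libraries (columns), as the log2 ratio of its CPM to the geometric mean of the 2 control libraries. Blue cells lie below and red cells above the control level, and colours stop at -3 and 3; the column of APAP 3 is blue for most genes and reddest for Oasl1, Rsad2 and Cxcl10, and Bst2 is dark blue in both SLIT2 libraries.

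In the control livers the genes spanned a wide range of levels once divided by exon length. Bst2, which encodes tetherin, a membrane protein that holds budding virions at the cell surface, had the highest level at 140.0 CPM per kb. Iigp1, an immunity-related GTPase that disrupts parasite vacuoles, followed at 62.0 CPM per kb. Ifi35, an interferon-induced leucine zipper protein, stood at 23.2, Isg15, a ubiquitin-like modifier, at 18.6 and Igtp at 11.3 CPM per kb. Of the 6 genes of the oligoadenylate synthetase family, 4 had the lowest levels, with Oas3 at 0.0885, Oasl2 at 0.199, Oas1g at 0.249 and Oas2 at 0.254 CPM per kb, while Oas1a stood at 0.877 and Oasl1 at 2.04. Several of these genes cannot be counted cleanly: Ifit3 and Ifit3b, and Oas1a and Oas1g, are near copies, and Igtp and Irgm2 share 7974 bases on the same strand. The gene body of Cxcl10 lies within Art3 on the opposite strand, and whether the counting used strand is not given in the sources used here, so reads of such pairs cannot be told apart.

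The first comparison asked which interferon response genes differed 24 h after APAP. None of the 39 was called (edgeR quasi-likelihood test, Benjamini-Hochberg adjusted p under 0.05 over all 16876 genes tested), against 0.788% of all genes. The estimates nevertheless lay mostly below 0: 30 of the 39 genes had a negative log2 difference, with a median of -0.41 for the type I genes and -0.41 for the gamma genes, while 47.1% of all genes were negative and their median was 0.05. In 18 of the 39 genes both APAP libraries lay below both control libraries (26.1% of all genes), and in 4 both lay above (26.9% of all genes). At an unadjusted p under 0.05 there were 9 of the 39 genes, near the 24.6% of all genes. DESeq2 called 6 of the 39, with Cxcl10 and Oasl1 higher and Gbp3, Ifi35, Ifih1 and Ifit1 lower, and 11.6% of all genes with an adjusted p. In edgeR, 0.332% of all genes were called higher and 0.456% lower. In bulk tissue such as this, fewer cells of a responding type and less RNA per cell cannot be told apart.

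Ifit1, which binds viral RNA that lacks the marks of host caps, had the smallest adjusted p of the genes below control. Its levels were 16.3 and 17.3 CPM in the control livers and 7.16 and 6.81 with APAP. Both APAP libraries lay far below both control libraries and close to each other, with a log2 difference of -1.27 ± 0.22 (edgeR adjusted p = 0.0519), where ± gives the SE here and below. The gene was called lower by DESeq2 and, in edgeR, with DESeq2 size factors, without the count filter and without mitochondrial genes. Ifi35 stood at 38.4 and 41.7 CPM in the control livers and 17.8 and 24.3 with APAP, with a difference of -0.93 ± 0.24 (edgeR adjusted p = 0.0844). For Ifih1, which encodes the RNA sensor MDA5, the levels were 25.2 and 24.7 CPM in the control livers and 12.7 and 16.3 with APAP, and the difference was -0.78 ± 0.20 (edgeR adjusted p = 0.0876). The groups did not overlap for either gene. Gbp3, a guanylate-binding protein that targets pathogen vacuoles, stood at 4.64 and 5.61 CPM in the control livers and 2.94 and 2.78 with APAP, and its neighbour Gbp7 at 13.2 and 16.4 CPM in the control livers and 7.52 and 10.3 with APAP. Their differences of -0.84 and -0.74 had edgeR adjusted p of 0.113 and 0.124.

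The largest positive estimates with APAP came from 1 of the 2 libraries. Oasl1, a relative of the oligoadenylate synthetases that lacks their activity, was at 5.26 and 5.38 CPM in the control livers, at 116 CPM in APAP 3 and at 8.18 CPM in APAP 4. Cxcl10, a chemokine that draws T cells through CXCR3, was at 1.97 and 2.24 CPM in the control livers, 90.1 CPM in APAP 3 and 3.39 CPM in APAP 4. Both APAP libraries were above both controls for these genes, but by very unequal amounts. The log2 differences were 3.55 ± 0.98 (edgeR adjusted p = 0.094) for Oasl1 and 4.47 ± 1.21 (edgeR adjusted p = 0.0907) for Cxcl10. Without APAP 3 they were 0.62 and 0.69. Rsad2, which encodes viperin, an enzyme that makes a chain-terminating nucleotide, was at 10.9 and 8.79 CPM in the control livers, 41.5 CPM in APAP 3 and 7.07 CPM in APAP 4. Its difference of 1.30 became -0.47 without APAP 3.

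Of the 39 genes, 13 were higher in APAP 3 and 26 in APAP 4. Irgm2, a regulatory immunity-related GTPase, was at 2.84 CPM in APAP 3 and 22.01 CPM in APAP 4, against 16.6 and 16.5 CPM in the control livers. Igtp, whose gene body overlaps it, was at 4.28 and 20.1 CPM in APAP 3 and APAP 4. Zbp1, a sensor of Z-form nucleic acid that can start necroptosis, was at 2.06 and 11.8 CPM, and Iigp1 at 123 and 298 CPM, against 377 and 346 CPM in the control livers. All 4 were low in APAP 3 and near or above the control level in APAP 4. Of the gamma genes, Cxcl9, the sister chemokine of Cxcl10, was higher in APAP 3 by more than 2-fold, as Cxcl10 was, at 9.87 CPM in APAP 3 and 1.48 CPM in APAP 4, against 7.08 and 5.88 CPM in the control livers.

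**Figure D2:**
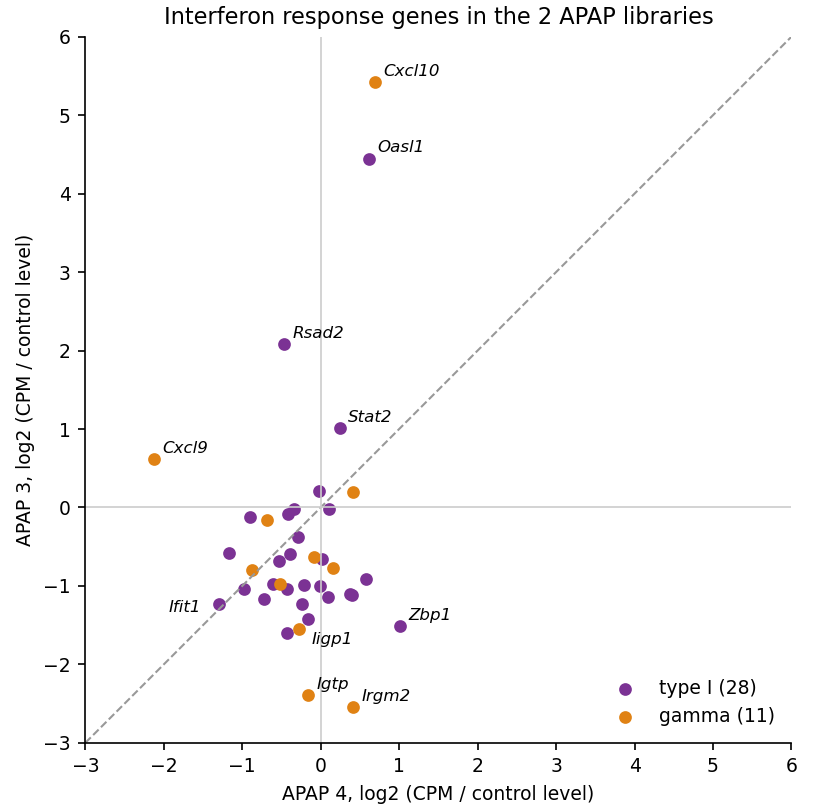
Each interferon response gene in the 2 APAP libraries, as the log2 ratio of its CPM to the control level in APAP 4 (horizontal axis) and APAP 3 (vertical axis); purple points are type I genes, orange points gamma genes and the dashed line marks equal values. Cxcl10, Oasl1 and Rsad2 stand far above the line, and Irgm2, Igtp and Zbp1 far below it.

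Counted over all 39 genes, 14 (35.9%) differed more than 2-fold between APAP 3 and APAP 4, against 27.1% of all genes. Of these, 4 were higher in APAP 3 (15.9% of all genes were) and 10 in APAP 4 (11.2% of all genes were). The median type I gene lay 0.94 log2 units below the control level in APAP 3 (-0.94) and 0.26 below in APAP 4 (-0.26). For the gamma genes the medians were -0.77 and -0.16, and for all genes 0.0 in both libraries. Of the marker lists, plasmacytoid dendritic cell markers summed to 10.5 CPM in APAP 3 and 1.4 CPM in APAP 4, with none of the 4 at 0 in both. These 4 markers were split in their log2 difference of APAP from control, none called. Siglech and Pacsin1 were positive at 2.16 and 1.37, and Klk1 and Ccr9 negative at -2.01 and -1.79. Liver endothelial markers summed to 100.4 and 37.8 CPM over 6 markers and neutrophil markers to 23.0 and 8.85 CPM over 8, and their part in the difference between the libraries was not tested. Markers of T and NK cells, the main makers of interferon gamma, summed to 3.18 and 2.5 CPM over 12 markers. The count of genes called rests on the APAP libraries: without APAP 4, 20 genes were called, 4 higher (Cxcl10, Oasl1, Rsad2, Stat2) and 16 lower, and without APAP 3, 2 were called lower (Ifit1 and Cxcl9). Over all genes the calls moved in the same way, to 28.7% without APAP 4 and 3.1% without APAP 3.

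Livers given SLIT2 with APAP were then compared with livers given APAP alone, which addresses the question of SLIT2 in APAP-induced liver injury that the series is named for. Of the 39 genes, 7 were called (17.9%), against 13.9% of all genes. Ifit1, Ifi44, Oas2, Gbp3 and Gbp7 rose, 12.8% of the genes against 6.28% of all genes, and Oasl1 and Cxcl10 fell, 5.13% against 7.63% of all genes. The median difference was 0.18 for the type I genes and 0.39 for the gamma genes, against -0.06 for all genes. In 17 of the 39 both SLIT2+APAP libraries lay above both APAP libraries (28.8% of all genes), and in 5 both lay below (29.4% of all genes).

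The 2 guanylate-binding proteins gave the smallest adjusted p. Gbp7 stood at 7.52 and 10.3 CPM with APAP and 22.99 and 24.1 with SLIT2+APAP, with 20.4 and 25.8 CPM with SLIT2 alone. The SLIT2+APAP libraries lay above both APAP and both control libraries, and the log2 difference from APAP was 1.40 ± 0.24 (edgeR adjusted p = 0.0139). Gbp3 stood at 2.94 and 2.78 CPM with APAP and 7.35 and 8.001 with SLIT2+APAP, with 6.19 and 8.62 CPM with SLIT2 alone, and rose by 1.42 ± 0.27 (edgeR adjusted p = 0.0158). In both genes the APAP libraries were the lowest of the 8. These genes are neighbours on chromosome 3, and reads from such related copies may be shared.

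Ifit1 rose from 7.16 and 6.81 CPM in the APAP libraries to 12.8 and 17.1 CPM with SLIT2+APAP, a log2 difference of 1.10 ± 0.22 (edgeR adjusted p = 0.0202). Of the SLIT2+APAP libraries, 1 lay below both controls and 1 between them. Oas2, which makes oligoadenylates that activate RNase L, was at 0.549 and 0.835 CPM with APAP and 1.90 and 2.56 with SLIT2+APAP, against 1.13 and 1.12 CPM in the control livers. Its SLIT2+APAP libraries were above every control and APAP library, with a difference of 1.68 ± 0.37 (edgeR adjusted p = 0.0265). Ifi44, an antiviral gene of the type I class, was at 1.90 and 1.86 CPM in the control livers and 2.71 and 2.59 with SLIT2. With APAP it stood at 1.25 and 1.43 CPM and with SLIT2+APAP at 2.78 and 3.86 CPM, a difference of 1.31 ± 0.30 (edgeR adjusted p = 0.0293). No SLIT2+APAP library overlapped an APAP library in any of these genes.

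**Figure D3:**
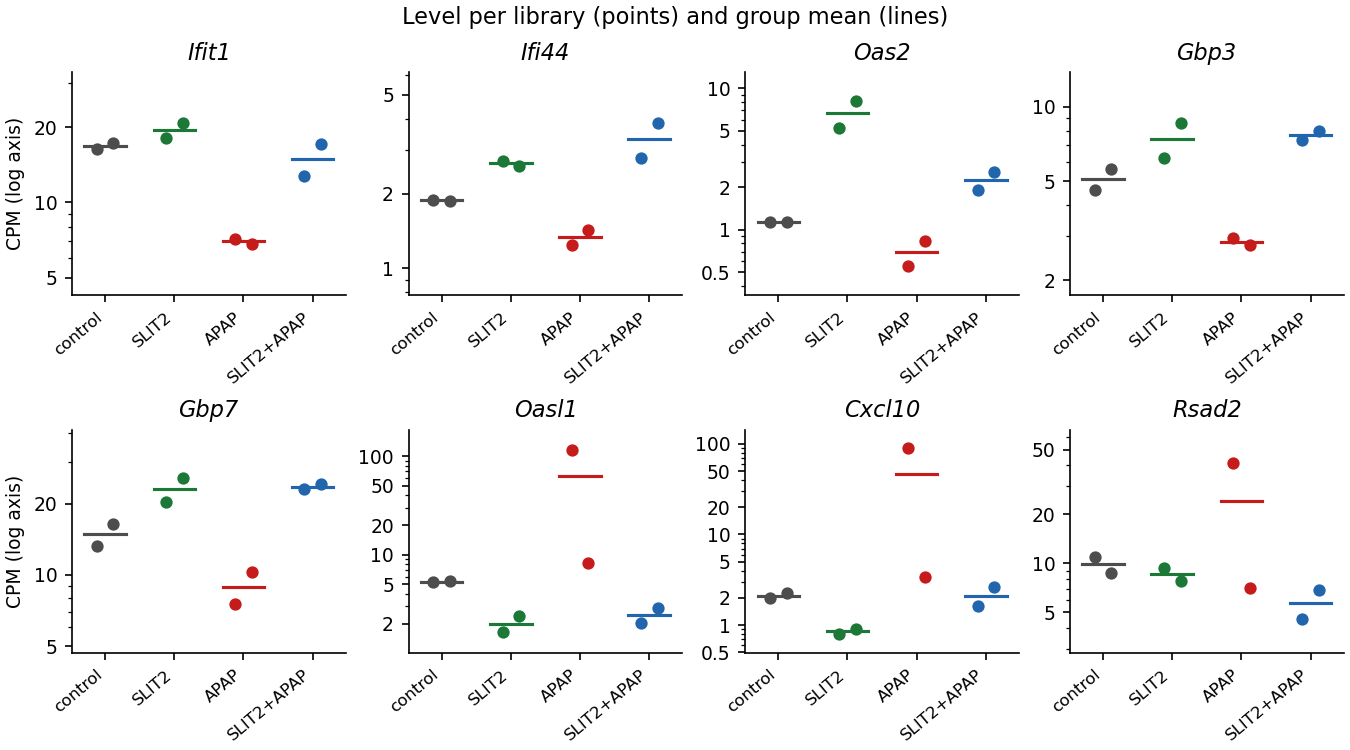
Level of 8 interferon response genes in every library (points, CPM on log axes) with the mean of each group (lines), 2 libraries per group. For Ifit1, Ifi44, Oas2, Gbp3 and Gbp7 the red APAP points are the lowest, and for Oasl1, Cxcl10 and Rsad2 1 APAP point stands far above all the others.

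Oasl1 and Cxcl10 moved the other way. Oasl1 was at 2.05 and 2.87 CPM with SLIT2+APAP, below both APAP and both control libraries, a log2 difference from APAP of -4.66 ± 1.04 (edgeR adjusted p = 0.0273). Cxcl10 was at 1.63 and 2.61 CPM with SLIT2+APAP, below both APAP libraries and around the control values, a difference of -4.46 ± 1.21 (edgeR adjusted p = 0.047). Both falls drew much of their size from APAP 3: without it the differences were -1.74 for Oasl1, still called, and -0.68 for Cxcl10, no longer called. Rsad2 had the same shape, at 4.54 and 6.91 CPM with SLIT2+APAP, but its difference of -2.08 ± 0.68 (edgeR adjusted p = 0.0783) did not pass.

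Among the remaining genes, Dtx3l, the ubiquitin ligase partner of Parp9, came closest to a call at 1.04 ± 0.32 (edgeR adjusted p = 0.0663), followed by Iigp1 at 1.22 ± 0.38 (edgeR adjusted p = 0.0695). Iigp1 was at 123 and 298 CPM with APAP and 483 and 500.1 with SLIT2+APAP, with no overlap. Isg15 and Usp18, the protease that removes ISG15 and dampens the type I receptor, had differences of -0.11 and 0.00. Monocyte and macrophage markers summed to 38.0 and 43.8 CPM with SLIT2+APAP against 82.1 and 77.6 CPM with APAP, and Kupffer cell markers to 108.0 and 94.8 against 174.7 and 128.4 CPM, over 8 markers each. Of the 8 monocyte and macrophage markers 7 were negative, with only Cd68 called lower, and Ccr2 was positive at 1.61. Of the 8 Kupffer cell markers 6 were negative, with only C1qb called lower, and Timd4 and Adgre1 were positive at 0.4 and 0.08. Each list thus had 12.5% called lower, against 7.63% of all genes. None of either list was at 0 in both libraries of a group, and their part in the differences of the interferon genes was not tested. No gene was called when either SLIT2+APAP library was left out or when only the 4 libraries compared were fitted, and without either control library only Gbp3 and Gbp7 were. Without SLIT2 1 and without SLIT2 2 there were 4 and 5 calls, all of them among the 5 rises, and without APAP 3 and APAP 4 there were 9 and 21. Over all genes 0.923% and 0.116% were called without SLIT2+APAP 1 and SLIT2+APAP 2, 0.00645% in the 4 libraries, and 17.9% and 34% without APAP 3 and APAP 4. The share of all genes called was likewise lower than in the main fit with either control or either SLIT2 library left out. The calls of Ifit1 and Ifi44 were also lost with offsets for GC content. Over the 17 alternatives Gbp3 and Gbp7 lost their calls in 3 each, Oas2 in 5, Ifit1 in 6, Ifi44 in 7, Oasl1 in 8 and Cxcl10 in 11.

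Against control, no interferon response gene was called in the SLIT2+APAP livers (edgeR), where 2.14% of all genes were. The median was -0.08 for the type I genes and 0.19 for the gamma genes, with 21 of 39 positive, against 0.04 for all genes. In 13 of the 39 both SLIT2+APAP libraries lay above both controls (35.2% of all genes), and in 15 both lay below (32.3% of all genes). Scaling by library totals alone moved the type I median to 0.23 and the median of all genes to 0.34. The sign of the type I median thus depended on the scaling, but it lay below the median of all genes in both. At an unadjusted p under 0.05 there were 7 of the 39 genes, against 20.4% of all genes. DESeq2 called Bst2 and Ifih1 lower, 2 of the 39, against 9.71% of all genes with an adjusted p. Bst2 was at 128 and 126 CPM in the control livers and 73.2 and 66.5 with SLIT2+APAP, with no overlap between the groups and a difference of -0.86 ± 0.23 (edgeR adjusted p = 0.093). Ifih1 was at 25.2 and 24.7 CPM in the control livers and 15.1 and 15.3 with SLIT2+APAP, a difference of -0.72 ± 0.20 (edgeR adjusted p = 0.102). Oas2 had the largest positive estimate at 0.98 ± 0.36 (edgeR adjusted p = 0.179). Leaving out either APAP library, whose spread enters the shared error, gave 6 calls, with Gbp7 higher and Bst2, Ifih1, Oasl1, Parp9 and Usp18 lower, where 14.3% and 13.6% of all genes were called.

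SLIT2 without APAP gave the most calls. Of the 39 genes 14 were called (35.9%), but 54.9% of all genes were called in this comparison, so the share among interferon response genes was below that of the table as a whole. The 4 that rose were Oas1g, Oas2, Stat2 and Eif2ak2 (27.3% of all genes rose), and the 10 that fell were Bst2, Gbp2, Irgm1, Zbp1, Ifit3b, Ifih1, Ifi35, Ifit2, Parp9 and Isg15 (27.6% of all genes fell). All 4 rises were type I genes, and 2 of the 10 falls, Gbp2 and Irgm1, were gamma genes. The median was 0.11 for the type I genes and -0.24 for the gamma genes, against 0.0 for all genes. In 14 of the 39 both SLIT2 libraries lay above both controls (41.2% of all genes), and in 17 both lay below (41.4% of all genes). The type I median was -0.03 without SLIT2 2.

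The fall of Bst2 was the steepest. Its levels were 128 and 126 CPM in the control livers and 10.1 and 7.28 with SLIT2. Both SLIT2 libraries were far below every other library, of which the lowest was SLIT2+APAP 2 at 66.5 CPM, and the log2 difference was -3.86 ± 0.26 (edgeR adjusted p = 9.87e-05). Ifih1 was at 25.2 and 24.7 CPM in the control livers and 9.10 and 8.94 with SLIT2, a difference of -1.47 ± 0.21 (edgeR adjusted p = 0.000725). Ifi35 was at 38.4 and 41.7 CPM in the control livers and 18.6 and 14.1 with SLIT2, a difference of -1.29 ± 0.24 (edgeR adjusted p = 0.00266). None of these groups overlapped. The RNA sensor RIG-I, a relative of MDA5 encoded by Ddx58, was not called: it stood at 16.6 and 18.1 CPM in the control livers and 18.4 and 23.9 with SLIT2, with a difference of 0.28 ± 0.38 (edgeR adjusted p = 0.547).

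Of the 4 Ifit genes, 2 fell. Ifit3b fell from 1.82 and 2.15 CPM in the control livers to 0.501 and 0.634 CPM, a difference of -1.81 ± 0.34 (edgeR adjusted p = 0.00289). Ifit2 fell from 1.83 and 2.01 to 0.752 and 1.09 CPM, a difference of -1.07 ± 0.39 (edgeR adjusted p = 0.0456). Ifit3, the near copy of Ifit3b with the same 94 bases around its ISRE cores, was at 8.95 and 12.7 CPM in the control livers and 6.97 and 5.72 with SLIT2, a difference of -0.77 ± 0.29 (edgeR adjusted p = 0.0558). Ifit1 was higher in both SLIT2 libraries than in the controls, at 18.1 and 20.7 CPM, and was not called. Isg15 fell from 12.6 and 15.6 to 8.30 and 7.55 CPM, a difference of -0.83 ± 0.22 (edgeR adjusted p = 0.0129). Zbp1 fell from 6.09 and 5.65 to 1.40 and 1.90 CPM, a difference of -1.83 ± 0.68 (edgeR adjusted p = 0.0495), close to the threshold.

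Of the 6 genes of the oligoadenylate synthetase family, 2 rose. Oas2 rose from 1.13 and 1.12 CPM to 5.22 and 8.13 CPM, a difference of 2.56 ± 0.37 (edgeR adjusted p = 0.000811). Oas1g rose from 0.715 and 0.452 to 1.62 and 1.92 CPM, a difference of 1.6 ± 0.50 (edgeR adjusted p = 0.027). Both SLIT2 libraries were above both controls in each. Oas1a, Oas3 and Oasl2 had estimates of 0.15, 0.66 and 1.09 that did not pass, and Oasl1 one of -1.41. Eif2ak2, which encodes PKR, a kinase that stops translation when it meets double-stranded RNA, rose from 13.8 and 14.1 to 32.7 and 32.1 CPM, a difference of 1.22 ± 0.25 (edgeR adjusted p = 0.00418).

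Of the 4 transcription factors, 1 rose. Stat2, the STAT of the type I complex, rose from 42.3 and 47.5 CPM to 103 and 169 CPM, a difference of 1.6 ± 0.33 (edgeR adjusted p = 0.00409). Its partner Irf9 was at 25.1 and 24.8 CPM in the control livers and 22.2 and 29.9 with SLIT2, a difference of 0.06, and Irf7, which amplifies type I interferon, had a difference of 0.40. Neither was called, and nor was Irf1 at 0.29. Parp9, an ADP-ribosyltransferase that pairs with DTX3L, fell from 33.8 and 26.7 to 15.98 and 15.3 CPM, a difference of -0.95 ± 0.32 (edgeR adjusted p = 0.0343). Dtx3l, which overlaps it by 682 bases on the opposite strand, was higher in both SLIT2 libraries at 52.5 and 40.1 against 30.6 and 28.5 CPM, with an estimate of 0.65 that did not pass.

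Of the gamma genes, Irgm1, a regulator of the other immunity-related GTPases, fell from 35.3 and 30.1 CPM to 6.41 and 8.53 CPM, a difference of -2.13 ± 0.33 (edgeR adjusted p = 0.00105). Gbp2 fell from 2.18 and 1.66 to 0.118 and 0.760 CPM, a difference of -2.17 ± 0.66 (edgeR adjusted p = 0.0238), with the SLIT2 libraries far from each other. Without SLIT2 1 the Gbp2 difference was -1.36, no longer called, and without SLIT2 2 it was -3.98. Irgm2 and Igtp had estimates of -1.84 and -1.40 that did not pass. Gbp3 and Gbp7 pointed the other way at 0.53 and 0.64, also without a call. Tap1, the peptide transporter of antigen presentation, overlapped fully with control, at 8.77 and 12.04 against 11.98 and 10.2 CPM.

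These differences came with large shifts in the make-up of the SLIT2 libraries. Beside the mitochondrial share, 6 of 7 hepatocyte markers and 6 of 8 Kupffer cell markers were called lower, and Kupffer markers summed to 39.6 and 43.7 CPM against 101.5 and 130.5 CPM in control. Plasmacytoid dendritic cell markers summed to 20.8 and 12.5 CPM against 1.75 and 1.56, and T and NK cell markers to 10.9 and 8.93 CPM against 3.25 and 3.35, with none of either list at 0 in both libraries. Of the 11 T and NK cell markers tested, 8 were positive and 3 negative, and 4 were called higher (36.4%) where 27.3% of all genes were. The 3 negative ones were Cd3g, Nkg7 and Gzma at -0.20, -0.16 and -1.03. Neutrophil markers summed to 37.6 and 33.8 CPM against 3.59 and 4.67 in control, with Ly6g and Elane of the 8 at 0 in both SLIT2 libraries and Ly6g in both controls. Of the 7 tested, 3 were called higher (Mpo, Csf3r and Cxcr2), 42.9% against 27.3% of all genes. S100a8, S100a9 and Retnlg at 0.56, 0.27 and 1.13 were not called, and nor was Elane at -4.54. Monocyte and macrophage markers summed to 19.6 and 18.8 CPM against 54.6 and 62.4, but the 8 markers were split. Their estimates were positive for 4 and negative for 4, with 4 called lower and Cx3cr1 called higher at 2.04 ± 0.51 (edgeR adjusted p = 0.0107). The part of these shifts in the interferon genes was not tested. As a description, the Spearman correlation of exon length with the SLIT2 difference was 0.41 over the 39 genes and 0.15 over 16554 genes. Of the 14 calls, Bst2, Ifih1, Ifi35, Ifit3b, Irgm1, Oas2, Stat2 and Eif2ak2 held in all 17 alternative analyses run. The calls of Ifit2, Zbp1, Parp9, Oas1g, Gbp2 and Isg15 were lost in 11, 10, 7, 6, 4 and 3 of the 17. With either control or either SLIT2 library left out, the share of all genes called was lower than in the main fit, as was the count of interferon genes. Without control 1, control 2, SLIT2 1 and SLIT2 2 there were 9, 8, 9 and 9 calls, and without APAP 3 or APAP 4 there were 25, where 65.5% and 64.5% of all genes were called.

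Whether the SLIT2 difference was the same with and without APAP was tested with an interaction term, the difference between SLIT2+APAP and APAP minus that between SLIT2 and control. It was called for 6 of the 39 genes, against 28.8% of all genes. The term was above 0 for Bst2 at 3.25 ± 0.34 (edgeR adjusted p = 0.00317), Ifi35 at 1.89 ± 0.34 (edgeR adjusted p = 0.00836) and Ifih1 at 1.53 ± 0.29 (edgeR adjusted p = 0.00977). It was also above 0 for Ifit3b at 1.96 ± 0.47 (edgeR adjusted p = 0.0208) and Irgm1 at 1.79 ± 0.45 (edgeR adjusted p = 0.0233). All 5 fell with SLIT2 alone, while with APAP the same addition gave differences of -0.62, 0.60, 0.06, 0.15 and -0.34, none called. The term was below 0 for Stat2, at -1.82 ± 0.45 (edgeR adjusted p = 0.0235). Stat2 was at 90.2 and 52.98 CPM with APAP and 61.6 and 61.9 with SLIT2+APAP, so both SLIT2+APAP values lay between the 2 APAP values.

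**Figure D4:**
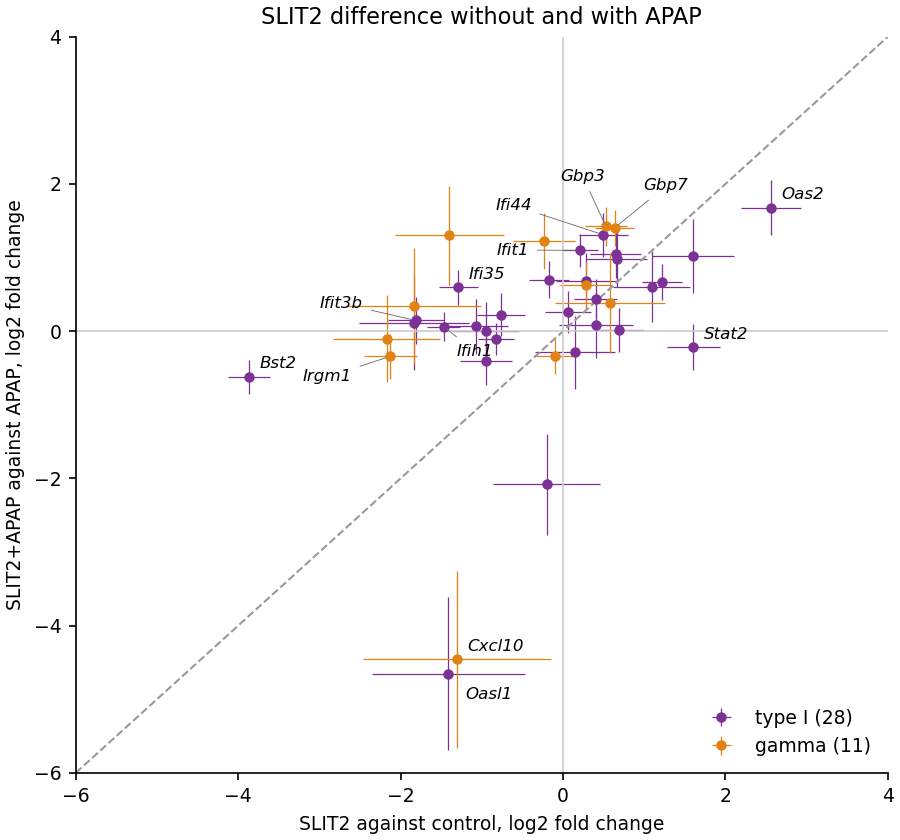
Difference of each interferon response gene with SLIT2 against control (horizontal axis) and with SLIT2+APAP against APAP (vertical axis), as log2 fold changes with bars of 1 SE; purple points are type I genes, orange points gamma genes and the dashed line marks equal values. Named genes were called on the vertical axis or in the interaction, and Bst2, Ifi35, Ifih1, Ifit3b and Irgm1 lie left of the line, near 0 on the vertical axis, while Stat2 lies right of it.

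Ifit1, Gbp3, Gbp7, Ifi44 and Oas2, which rose when SLIT2 was added to APAP, had interaction terms of 0.89, 0.89, 0.77, 0.81 and -0.88, none called, so for these genes no difference between the 2 settings was shown. The same holds for Oasl1 at -3.25 ± 1.32 (edgeR adjusted p = 0.099) and Cxcl10 at -3.15 ± 1.6 (edgeR adjusted p = 0.167). Over the 15 alternatives run, the calls of Bst2 and Ifi35 held in all. Those of Ifih1, Stat2, Ifit3b and Irgm1 were lost in 3, 5, 6 and 6. With any control, SLIT2 or SLIT2+APAP library left out, the share of all genes called was lower than in the main fit, as was the count of interferon genes. Without either control library or without SLIT2+APAP 1 there were 2 calls, without SLIT2+APAP 2 there were 3, without SLIT2 1 or SLIT2 2 there were 4, and without APAP 3 and APAP 4 there were 13 and 21, where 31.7% and 46.0% of all genes were called.

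Over the 5 tests, 20 of the 39 genes were called at least once and 19 in none, while 60.5% of all genes were called at least once. The 19 include the transcription factors Irf1, Irf7 and Irf9, the sensor Ddx58, Trim25, a ubiquitin ligase that acts on RIG-I, and Parp14, a mono-ADP-ribosyltransferase. They also include Ifit3, Oas1a, Oas3, Oasl2, Usp18, Rsad2, Xaf1, Dtx3l, Igtp, Iigp1, Irgm2, Tap1 and Cxcl9. Their differences with APAP ran from -0.91 (Igtp) to 1.30 (Rsad2), with SLIT2 alone from -1.84 (Irgm2) to 1.09 (Oasl2), and between SLIT2+APAP and APAP from -2.08 (Rsad2) to 1.30 (Igtp). Trim25 was at 48.98 and 39.2 CPM with APAP and 69.8 and 73.5 with SLIT2+APAP, above APAP in both libraries, with a difference of 0.70 ± 0.25 (edgeR adjusted p = 0.0948). Xaf1, a pro-apoptotic protein, was at 3.62 and 4.17 CPM in the control livers and 5.26 and 7.37 with SLIT2, a difference of 0.69 ± 0.30 (edgeR adjusted p = 0.0815).

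The interferons themselves were near the limit of detection. Ifng, which encodes interferon gamma, had 0 and 6 counts in the control libraries, 19 and 0 with SLIT2, 1 and 0 with APAP and 2 and 6 with SLIT2+APAP, too few to pass the filter. Ifna2 and Ifnl2 had 1 count each over all libraries. Ifnk had 34, with 3 and 3 in the control libraries and 0 and 0 with SLIT2. It had 16 and 9 counts with APAP and 2 and 1 with SLIT2+APAP, so both APAP libraries were above all others. Ifnb1 and 5 further ligands were not analysed here. No ligand passed the filter on low counts, so differences in ligand transcripts were not tested.

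Of the 6 receptor chains none was called with APAP. With SLIT2 alone, 1 rose and 2 fell, 3 of 6 where 54.9% of all genes were called. Ifnar2, a chain of the type I receptor, fell from 82.7 and 86.8 CPM to 21.5 and 16.2 CPM. The difference was -2.17 ± 0.24 (edgeR adjusted p = 0.000261), and the call held in all 17 alternatives. Between SLIT2+APAP and APAP the Ifnar2 difference was 0.34, not called, and its interaction term was 2.51 (edgeR adjusted p = 0.00409). That term was called for 2 of the 6 chains, against 28.8% of all genes. The other was Ifngr2 at -1.22 (edgeR adjusted p = 0.0395), a call lost in most alternatives. Ifnar1 was not called with SLIT2 alone, at 0.06. Ifngr1, the ligand-binding chain of the interferon gamma receptor, fell from 7.59 and 7.26 to 4.82 and 3.93 CPM, a difference of -0.76 ± 0.23 (edgeR adjusted p = 0.0231). With SLIT2+APAP it was at 5.89 and 5.58 CPM against 11.9 and 10.2 CPM with APAP, a fall of -0.94 ± 0.23 (edgeR adjusted p = 0.0337). It was the only receptor call there, 1 of 6 (16.7%) against 13.9% of all genes. Ifnlr1 rose with SLIT2 to 0.413 and 0.616 CPM from 0.155 and 0.0210 CPM, a very low level, with a difference of 2.56 ± 0.78 (edgeR adjusted p = 0.0234) that ran from 1.76 to 4.46 over the alternatives.

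Of 7 kinases and transcription factors of the pathway, none of them among the 40, 2 rose and 1 fell with SLIT2 alone, 42.9% against 54.9% of all genes. Jak2, a kinase of the gamma receptor, fell with SLIT2 from 8.88 and 10.4 to 4.11 and 5.78 CPM, a difference of -0.96 ± 0.28 (edgeR adjusted p = 0.0196). Irf2, known as an antagonist of IRF1, rose in both SLIT2 comparisons, by 1.24 ± 0.23 (edgeR adjusted p = 0.00286) without APAP and by 0.98 ± 0.23 (edgeR adjusted p = 0.0315) with it. Irf8 rose with SLIT2 by 1.49 ± 0.40 (edgeR adjusted p = 0.0143). Irf2 was the 1 of the 7 called between SLIT2+APAP and APAP, 14.3% against 13.9% of all genes.

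Among 10 tested genes of nucleic acid sensing, 2 fell with SLIT2 alone and none rose, against 54.9% of all genes called. Mavs, the adaptor that RIG-I and MDA5 share, fell from 29.99 and 29.4 to 9.54 and 11.6 CPM, a difference of -1.49 ± 0.39 (edgeR adjusted p = 0.0128), and Myd88, an adaptor of Toll-like receptors, by -1.14 ± 0.39 (edgeR adjusted p = 0.0384). Between SLIT2+APAP and APAP, the RNA receptor Tlr3 rose from 2.56 and 3.28 to 5.67 and 6.54 CPM, a difference of 1.06 ± 0.26 (edgeR adjusted p = 0.0335). Its adaptor Ticam1 fell from 15.7 and 10.3 to 4.48 and 6.11 CPM, a difference of -1.30 ± 0.30 (edgeR adjusted p = 0.0297). Tlr3 and Ticam1 were the 2 of the 10 called there, 20.0% against 13.9% of all genes. Of 6 negative regulators, Socs3, a feedback inhibitor of JAK kinases, fell from 102 and 28.7 CPM with APAP to 9.20 and 14.9 CPM with SLIT2+APAP, a difference of -2.44 ± 0.59 (edgeR adjusted p = 0.0338), with APAP 3 the high library. Over the 17 alternatives this difference ran from -3.06 to -1.26 and was called in 7. The gene stood at 7.35 and 7.24 CPM in the control livers. Socs3 was the only 1 of the 6 called between SLIT2+APAP and APAP, 16.7% against 13.9% of all genes. Pias1, an inhibitor of STAT signalling, rose with SLIT2 alone by 1.28 ± 0.24 (edgeR adjusted p = 0.00281). It was the 1 of the 6 called with SLIT2 alone, 16.7% against 54.9% of all genes.

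A further 21 tested type I targets outside the 40 had 4 rises and 6 falls with SLIT2 alone, 47.6% of the list against 54.9% of all genes, with a median of -0.16. Between SLIT2+APAP and APAP they had 2 rises and 3 falls, 23.8% against 13.9% of all genes, with a median of 0.45. The steepest fall with SLIT2 was that of Ifitm3, a membrane protein that blocks viral entry, from 339.7 and 390.2 to 35.7 and 28.99 CPM, a difference of -3.50 ± 0.28 (edgeR adjusted p = 0.000103). Lgals3bp fell by -2.13 ± 0.27 (edgeR adjusted p = 0.000486) and Ifi27 by -1.77 ± 0.22 (edgeR adjusted p = 0.000447), while Sp100, a nuclear body protein, rose by 2.07 ± 0.30 (edgeR adjusted p = 0.000774). Between SLIT2+APAP and APAP, Samd9l rose by 1.23 ± 0.28 (edgeR adjusted p = 0.0283). Ly6e fell by -1.16 ± 0.24 (edgeR adjusted p = 0.0225), Apol9b by -2.66 ± 0.65 (edgeR adjusted p = 0.0339) and Lgals3bp by -0.98 ± 0.26 (edgeR adjusted p = 0.0461). With APAP alone the median was -0.27 and none was called.

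The 18 tested gamma targets and antigen presentation genes outside the 40 had 4 rises and 7 falls with SLIT2 alone, 61.1% of the list against 54.9% of all genes, with a median of -0.99. Psmb8, a subunit of the immunoproteasome, fell from 27.5 and 25.9 to 5.49 and 6.77 CPM, a difference of -2.12 ± 0.20 (edgeR adjusted p = 0.000155), Tapbp by -1.12 ± 0.21 (edgeR adjusted p = 0.00248) and Psmb10 by -0.99 ± 0.19 (edgeR adjusted p = 0.00348). Ciita, the master regulator of MHC class II genes, rose from 0.334 and 0.273 to 1.92 and 2.05 CPM, a difference of 2.70 ± 0.39 (edgeR adjusted p = 0.000766). Between SLIT2+APAP and APAP, 3 rose and none fell, 16.7% of the list against 13.9% of all genes, with a median of 0.19. Gbp8 rose from 0.748 and 0.845 to 4.68 and 4.45 CPM, a difference of 2.51 ± 0.37 (edgeR adjusted p = 0.00947). Gbp4 rose from 0.798 and 0.593 to 2.60 and 2.47 CPM, a difference of 1.87 ± 0.33 (edgeR adjusted p = 0.0139), and Tgtp2, a T cell GTPase of the immunity-related family, from 0.998 and 0.865 to 3.57 and 3.31 CPM, a difference of 1.89 ± 0.44 (edgeR adjusted p = 0.0297). Gbp4 and Gbp8 shared with Gbp3 and Gbp7 the pattern of APAP libraries below all others, and related Gbp copies may share reads. Over the 17 alternatives the pathway calls named here held in 11 to 17 for SLIT2 alone and in 4 to 14 for SLIT2+APAP against APAP.

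Set side by side, the 2 classes did not separate in their medians with APAP, at -0.41 each. Between SLIT2+APAP and APAP they were 0.18 for type I and 0.39 for gamma, with 20 of 28 and 7 of 11 genes positive. Against control, SLIT2+APAP gave -0.08 and 0.19, and SLIT2 alone 0.11 and -0.24. In each comparison the range within a class was far wider than the gap between the classes: with APAP the type I genes ran from -1.27 to 3.55 and the gamma genes from -0.91 to 4.47. These comparisons share libraries and are not independent of each other.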

How the data were processed

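Gene-level read counts of 8 mouse liver libraries (2 each of control, SLIT2, APAP and SLIT2+APAP) were analysed. Whole-number counts were deposited by the authors as 1 column per library. Per the submitters' processing notes, STAR 2.5.4, Cufflinks, Cuffdiff 2.2.1 and mm10 were used, while how reads were counted, with which annotation and on which strand, is not given in the sources used here. Libraries were made with a directional kit, per the labels' protocols. The largest counts appear rounded, as 72 of 93 values of at least 1000000 end in 0.

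Symbols came from GENCODE M21 (97.1% of rows matched). In R 4.3.3, edgeR 4.0.16 kept 16876 genes by filterByExpr, scaled them by TMM and fitted 1 mean per group to all 8 libraries (robust quasi-likelihood fit, legacy = FALSE, 4 residual degrees of freedom). The 5 contrasts were tested with Benjamini-Hochberg adjustment over all genes and called under 0.05. An exact permutation test of 2 against 2 libraries gives a two-sided p of 0.333 at best and was not used. Medians per library used CPM plus 0.05. Alternatives were other scalings, no filter, DESeq2 1.42.0, the legacy fit, GC offsets, no mitochondrial genes, fewer libraries, a replicate block and each library left out. The fit was tested on simulated data. With 1 library left in a group, that library is assumed to vary like the others. The members and all gene lists were chosen with earlier results of these data known. Named with values per library were members called in any contrast. Of each pathway list, the called genes with the 4 smallest p were named for SLIT2 alone and for SLIT2+APAP against APAP, some by the estimate only. Ifng and Ifnb1 were always named. Interaction calls of the pathway lists are given for the receptor chains only. A gene of the signalling list is not reported here. Members just outside a call and those that split the APAP libraries were named after their values were seen.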

Additional observations from a re-analysis of the deposited data

Results flagged for a closer look

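In 6 interferon response genes the SLIT2 difference was not the same with and without APAP by the interaction test in edgeR, where 28.8% of all genes were called. The interaction terms on the log2 scale were 3.25 for Bst2, 1.96 for Ifit3b, 1.89 for Ifi35, 1.79 for Irgm1, 1.53 for Ifih1 and -1.82 for Stat2. With SLIT2 alone Bst2 was 10.1 and 7.28 CPM against 128 and 126 CPM in control, and with SLIT2+APAP it was 73.2 and 66.5 CPM against 119 and 95.05 CPM with APAP. The SLIT2 libraries of this contrast are also those with 60.2% and 69.0% of counts on mitochondrially encoded genes, and the part of that share in the 6 terms was not tested. The same 6 were called with those genes left out of the library totals. That refit changes the scaling and the filter but not the counts of the other genes, so it cannot test that part. Of the 6, only Bst2 and Ifi35 were called in all 15 alternatives.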

How the results depend on the processing

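Genes called with APAP against control numbered 0, with 1 (Ifit1, lower) under DESeq2 size factors, without the count filter and without mitochondrial genes, 6 under DESeq2, and 0 to 20 with a library left out. SLIT2 against control had 14, with 23 in only the 4 libraries compared and 8 to 25 with a library left out. SLIT2+APAP against APAP had 7, with 0 in only its 4 libraries and 0 to 21 with a library left out. SLIT2+APAP against control had 0, with 2 under DESeq2, 16 in only its 4 libraries and 0 to 6 with a library left out. The interaction had 6, and 2 to 21 with a library left out. In only the 4 libraries compared, 65.5% of all genes were called for SLIT2 against control, against 54.9% in the main fit. For SLIT2+APAP against control the shares were 27.4% and 2.14%. The cause of these changes was not tested. No gene called in a comparison changed sign there in any alternative. Of the 39 genes, called or not, the sign changed in at least 1 alternative in 14 with APAP, 5 with SLIT2, 17 for SLIT2+APAP against APAP, 9 against control and 10 in the interaction. Rsad2 with APAP was -0.47 without APAP 3 and 2.06 without APAP 4, against 1.30. With APAP, Zbp1 and Parp14 were called at -1.53 and -0.94 without APAP 4, against 0.24 and 0.02, and the interaction for Cxcl9 was called at 1.77 without APAP 3, against -0.19. With the replicate block, the counts were 27 for SLIT2 and 7 for SLIT2+APAP against control, where 67.4% and 15.2% of all genes were called. The differences of library 1 from library 2 had correlations over genes of 0.07, -0.07 and -0.01 between groups. They showed no sign that the numbers pair the libraries, but 1 difference per group cannot exclude it. No paired analysis was possible for the comparisons with APAP alone because its libraries are numbered 3 and 4. Scaling by library totals alone moved the median of all genes to 0.16 with APAP, 0.11 with SLIT2, 0.12 for SLIT2+APAP against APAP and 0.34 against control. It split the calls over all genes with APAP as 144 higher and 91 lower, against 56 and 77, those of SLIT2+APAP against APAP as 1133 and 728, against 1060 and 1288, and those of SLIT2+APAP against control as 267 and 123, against 117 and 244. Each group has 2 libraries, and counting error was not set against the spread between them. Counts were low for Gbp2 in SLIT2 1 (8 counts), Ifnlr1 in control 2 (2 counts), Oas1g in APAP 3 (21 counts), Oas3 and the ligands.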

Other observations

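Pathway genes outside the 40 also divided the 2 APAP libraries, and those given here were chosen after their values were seen. The guanosine triphosphatase gene Ifi47 was at 3.24 and 13.6 CPM in APAP 3 and APAP 4 and the adaptor Mavs at 16.3 and 40.5 CPM, both lower in APAP 3. Socs3 was at 102 and 28.7 CPM, Myd88 at 26.3 and 12.2 CPM and H2-Aa, an MHC class II chain, at 31.1 and 5.16 CPM, all higher in APAP 3. Ly6e and Lgals3bp, type I targets that fell between APAP and SLIT2+APAP, differed less between the 2 libraries, at 151 and 116 CPM and 37.9 and 55.2 CPM.

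Within the guanylate-binding proteins measured, the order of groups was not shared. Gbp2 was lowest with SLIT2 alone, at 0.118 and 0.760 CPM, while Gbp3, Gbp4, Gbp7 and Gbp8 were lowest with APAP. Gbp9 was at 0.644 and 0.536 CPM in the control livers, 2.11 and 1.12 with SLIT2, 0.586 and 0.602 with APAP, and 1.55 and 1.16 with SLIT2+APAP and rose with SLIT2 alone by 1.46 ± 0.42 (edgeR adjusted p = 0.0188). Ifi47 and Tgtp1, immunity-related GTPases outside the 40, fell with SLIT2 alone by -2.43 ± 0.59 (edgeR adjusted p = 0.00922) and -2.49 ± 0.49 (edgeR adjusted p = 0.00366), as Irgm1 did.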
